A study of Mus musculus with 6 samples.

Results

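These data describe the gene loci of mouse chromosome 11, which carries Nlk, in neuroblastoma cells in which Nlk had been edited. Members are the loci on this chromosome that averaged 0.5 FPKM or more over the 6 libraries, where FPKM is a fragment count scaled to transcript length and to the size of the library. The rule took 1012 of the 1922 chromosome 11 loci and 1012 of the 12667 loci at this level in the whole table, without reference to the difference between genotypes. The loci just inside the limit had means of 0.501, 0.519 and 0.524 FPKM, and those just outside had means of 0.4999, 0.499 and 0.482 FPKM. A single gene symbol marked 933 of the loci, 38 carried several symbols and 41 had none. Of the members, 514 lay on the centromeric side of Nlk, as far as 75.4 Mb away, and 497 on the telomeric side, as far as 43.0 Mb away. The 10 loci of the HOXB homeobox cluster were in the table but outside the members, since the highest of them, Hoxb5, had a mean of 0.0164 FPKM.

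RNA from Neuro2a (N2a) cells, a mouse neuroblastoma line, was sequenced in 3 WT and 3 Nlk-KO libraries, labelled biological replicates 1 to 3 of each genotype. The KO cells were isogenic to the WT cells and had been derived as single clones after Cas9 nickase, or Cas9, was directed to Nlk with guide RNAs and clones without detectable Nlk protein were selected. N2a cells are polyploid and several clones were expanded, but which clone gave which library is not given in the sources used here, so that the spread between KO libraries may be technical, clonal or both. No treatment, time point or other allele differed between the groups in the labels.

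Nlk, Nemo-like kinase, is a serine/threonine kinase of the MAP kinase-related group that phosphorylates transcription factors of the TCF/LEF family and other nuclear proteins and is known as a modulator of WNT signaling. In tissues of the nervous system it is known for binding and modifying proteins linked to neurodegeneration. The comparison along the chromosome asks whether loci near the edited gene differed between genotypes more than loci far from it.

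The guide sites are shown because they fix where on the chromosome the cells were edited and which part of the Nlk transcript lies around the edit. All of them lay in the coding part of exon 1 of Nlk (ENSMUSG00000017376 in GRCm38, minus strand, gene record chr11:78567168-78697373). The sites are given 5′ to 3′ as found in the reference, with the adjoining PAM in capitals.
sgRNA no. 1: ttgttgcccagggtttaacaTGG
sgRNA no. 2: cccatccccggcaccgggtcAGG
sgRNA no. 3: acaccaccttcatccggggtCGG
The protospacer of sgRNA no. 1 was at chr11:78695997-78696016, on the strand opposite to the transcript across codons 84 to 90, that of sgRNA no. 2 at chr11:78695966-78695985 across codons 94 to 101, and that of sgRNA no. 3 at chr11:78696098-78696117 across codons 50 to 57. The exon 1 stretch that holds all of them, chr11:78695956-78696127, is printed along the transcript with the protospacers in capitals.
Nlk exon 1: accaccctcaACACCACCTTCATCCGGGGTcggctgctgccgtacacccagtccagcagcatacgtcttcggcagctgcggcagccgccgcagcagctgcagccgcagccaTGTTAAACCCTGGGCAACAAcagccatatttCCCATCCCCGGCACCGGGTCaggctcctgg

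Nlk mRNA was lower in every Nlk-KO library. WT replicates 1 to 3 held 15.8, 16.6 and 16.1 FPKM of Nlk, and the Nlk-KO replicates held 6.78, 7.01 and 6.83 FPKM. The genotypes did not overlap, and the Nlk mRNA left in the KO cells was 42.5% of the WT level. The difference in Nlk was −1.22 on the log2(FPKM + 0.1) scale (SE 0.04, n = 3 against 3, adjusted p = 1.36e-06, limma). Here and below, a locus is called higher or lower where limma's p-value, adjusted by Benjamini-Hochberg over the 12667 loci, was under 0.05. Of all loci tested, 37.1% were called, with 18.6% higher and 18.5% lower in Nlk-KO cells.

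The 35 loci within 1 Mb of Nlk, from Taok1 on the centromeric side to Rab11fip4 on the telomeric side, moved less than Nlk. Of these loci, 5 were higher, 7 were lower and 23 were not called, which is 34.3% called against the 37.1% of all loci. Their median log2 fold change was −0.08, and the largest change among them was 0.84 in size. The genotypes did not overlap at 21 of the 35 (8 above and 13 below WT), and at 51% of all loci.

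The nearest loci surround Nlk on both sides. Tmem97, which encodes the sigma-2 receptor and lies 16.4 kb away, was measured at 92.9, 95.0 and 91.9 FPKM in WT and 98.7, 97.3 and 107 FPKM in Nlk-KO cells, and was not called (log2 fold change 0.12, adjusted p = 0.078, limma). Ift20, an intraflagellar transport gene 25.4 kb away, went from 29.9, 30.7 and 30.7 to 27.8, 28.2 and 25.3 FPKM (−0.17, adjusted p = 0.026). The Ift20 call was lost when any WT library or Nlk-KO replicate 3 was left out, with adjusted p-values of 0.059, 0.076 and 0.061 for the WT libraries and 0.051 for that KO library. Tnfaip1, whose start adjoins that of Ift20, did not move by more than the spread between libraries (−0.03, adjusted p = 0.52). Poldip2, which encodes a polymerase delta interacting protein, was at 27.8, 27.6 and 28.4 FPKM in WT and 25.4, 25.8 and 25.1 FPKM in Nlk-KO cells (−0.13, adjusted p = 0.012). Tmem199, an assembly factor of the vacuolar ATPase, was not called (0.02), nor was Sarm1, an NAD hydrolase of axon degeneration (−0.10). Slc46a1, the proton-coupled folate transporter, was at 5.35, 5.41 and 5.05 FPKM in WT and 5.80, 5.94 and 6.09 FPKM in Nlk-KO cells. The Slc46a1 libraries did not overlap, and the call (0.17, adjusted p = 0.029) held only without Nlk-KO replicate 1 among the fits that left out 1 library, with adjusted p-values of 0.053 to 0.096 in the others.

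On the telomeric side the nearest locus was Fam58b, a cyclin-like gene 53.1 kb away, which was not called (−0.09, adjusted p = 0.32). Lyrm9, 129 kb away, was lower, at 2.73, 2.90 and 2.66 FPKM in WT and 1.70, 2.11 and 1.82 FPKM in Nlk-KO cells (−0.54, SE 0.09, adjusted p = 0.0040, limma). Lgals9, which encodes galectin-9, was low in all libraries, at 0.785, 1.08 and 1.06 FPKM in WT and 0.651, 0.441 and 0.749 FPKM in Nlk-KO cells (−0.60, adjusted p = 0.060). Ksr1, a scaffold of RAS signaling, Wsb1 and Nf1, the neurofibromin gene, followed without a call, with log2 fold changes of 0.04, 0.05 and −0.11, although Nf1 passed the threshold without Nlk-KO replicate 1 (−0.19, adjusted p = 0.042). Rab11fip4, a RAB11 effector 894 kb away, was at 1.30, 1.43 and 1.24 FPKM in WT and 1.95, 2.07 and 1.64 FPKM in Nlk-KO cells (0.48, adjusted p = 0.014).

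The largest change among the neighbors was that of Aldoc, which encodes the brain form of the glycolytic enzyme aldolase and lies 240 kb centromeric of Nlk. Aldoc was at 10.1, 9.71 and 10.2 FPKM in WT and at 5.59, 6.87 and 4.41 FPKM in Nlk-KO cells. The KO libraries were all lower but spread more widely than the WT libraries (10.01 ± 0.260 against 5.62 ± 1.23 FPKM, SD, n = 3 each), and the difference was −0.84 (SE 0.14, adjusted p = 0.0034, limma). Tlcd1 fell by 0.41, Pigs, a subunit of the GPI transamidase, fell by 0.19, and the merged locus of Proca1 and Rab34 fell by 0.16. Between these, the spindle gene Spag5, the elongation factor Supt6 and the ribosomal protein gene Rpl23a were not called (−0.11, −0.12 and −0.07). Just beyond Tlcd1, the kinase Nek8 was not called either (−0.15).

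Higher levels stood beside lower ones on this side. Traf4, a TNF receptor-associated factor, was at 26.9, 26.9 and 25.4 FPKM in WT and 32.9, 33.5 and 33.5 FPKM in Nlk-KO cells (0.33, adjusted p = 0.00040, limma), while Fam222b, given the same start and end in the table, was not called (−0.04). Sez6, a seizure-related neuronal gene, was at 6.27, 7.37 and 6.30 FPKM in WT and 8.33, 7.98 and 8.15 FPKM in Nlk-KO cells (0.30, adjusted p = 0.013). Myo18a, an unconventional myosin, went from 7.45, 8.33 and 7.17 to 9.22, 9.11 and 8.79 FPKM (0.24, adjusted p = 0.019). The call of Sez6 was lost without WT replicate 1 (adjusted p = 0.051), and that of Myo18a without WT replicate 1 (0.069) and without either of Nlk-KO replicates 1 and 2 (0.064 and 0.058). The merged Proca1 and Rab34 locus lost its call without WT replicate 1 (0.069), without Nlk-KO replicate 3 (0.058) and without WT replicate 2 (0.069), while Eral1 (−0.13, adjusted p = 0.053) gained one without WT replicate 3 (0.019) and Spag5 without Nlk-KO replicate 2 (0.019). Within 1 Mb, 2 loci were called higher when WT replicate 1 was left out and 3 when Nlk-KO replicate 2 was, against 5. With the libraries scaled to the same summed FPKM over loci with a symbol, 0 of the 35 were called higher and 1, Aldoc, was called lower by limma. At an unadjusted p under 0.05 these counts were 1 and 2. Over all loci tested, this scaling called 7.27%, against 37.1% at the deposited scaling.

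**Figure D1:**
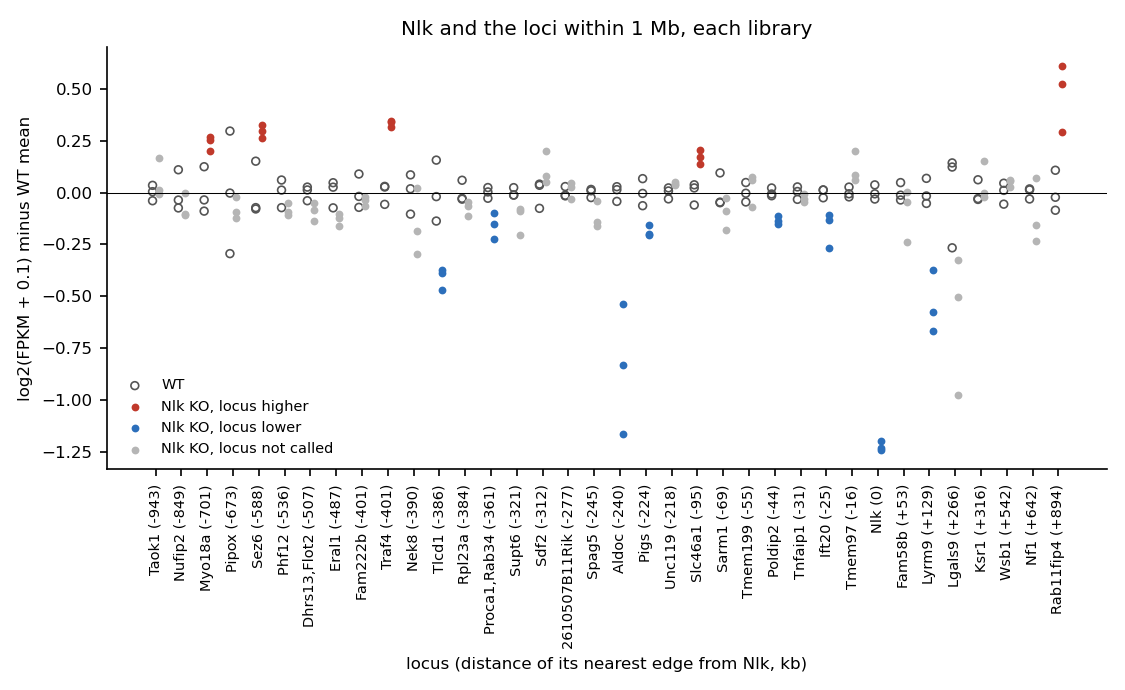
Nlk and the 35 loci within 1 Mb, ordered along the chromosome, with the distance of each locus from Nlk in kb. Each point is 1 library on the log2(FPKM + 0.1) scale less the mean of the 3 WT libraries (open circles, WT; filled circles, Nlk-KO, colored by call), and the Nlk libraries lie near −1.22 while those of most neighbors lie near 0.

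Divergent gene pairs give a closer view of neighboring starts. Among 701 members with 1 locus and a RefSeq start window, 46 pairs were found in which the windows from 250 bases before to 50 bases after the starts (RefSeq, GRCm38.p6) overlapped head to head. Both members were called in 7 pairs, with both lower in 6 and opposite directions in 1. A single member was called in 10 pairs and neither in 29. For comparison, 35.5% of the chromosome 11 loci and 37.1% of all loci were called. Of the calls on the chromosome, 65.2% were lower. Near Nlk these pairs included Poldip2 with Tmem199, where only the former was called, Ift20 with Tnfaip1, likewise, and Sdf2 with Supt6, where neither was. The pair of Eme1, a DNA repair nuclease subunit, and Mrpl27, a mitochondrial ribosomal protein gene, fell together: Eme1 was at 12.9, 14.2 and 13.2 FPKM in WT and 10.9, 11.2 and 11.5 FPKM in Nlk-KO cells (−0.26), and Mrpl27 at 41.7, 43.2 and 39.7 against 36.5, 35.0 and 33.4 FPKM (−0.25), calls that were lost with the same summed FPKM (adjusted p = 0.934 and 0.966). The opposite pair was Cox10, which was lower (−0.26), and 2810001G20Rik, which was higher (0.34). Cox10 and 2810001G20Rik were picked out after their values were seen.

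The start windows of 1 divergent pair of each kind are printed, the first where both genes were lower and the second where only Poldip2 was. In the first, the E-box CACGTG is in capitals.
Eme1 (chr11:94653694-94653993, minus strand): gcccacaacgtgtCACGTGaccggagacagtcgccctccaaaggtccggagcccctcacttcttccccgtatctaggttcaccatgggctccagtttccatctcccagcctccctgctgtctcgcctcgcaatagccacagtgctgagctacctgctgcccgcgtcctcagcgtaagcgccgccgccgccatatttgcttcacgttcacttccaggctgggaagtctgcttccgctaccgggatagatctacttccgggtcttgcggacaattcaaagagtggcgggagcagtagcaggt
Poldip2 (chr11:78512046-78512345, plus strand): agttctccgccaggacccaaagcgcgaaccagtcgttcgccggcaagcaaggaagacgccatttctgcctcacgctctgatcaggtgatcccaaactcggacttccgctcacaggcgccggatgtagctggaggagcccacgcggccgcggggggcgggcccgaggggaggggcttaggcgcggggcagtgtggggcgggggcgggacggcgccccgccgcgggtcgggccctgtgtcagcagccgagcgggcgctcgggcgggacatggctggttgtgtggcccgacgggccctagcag
The window of Eme1 shares 147 bases with that of Mrpl27, and the window of Poldip2 shares 227 bases with that of Tmem199. CACGTG, read alike on both strands, was found in 7.24% of 27025 mouse start windows of this length. Among members with a window it was found in 5 of 78 higher, 16 of 167 lower and 64 of 463 not called (6.41%, 9.58% and 13.8%). The TCF/LEF core CTTTGAT, searched on both strands, was found in 3.72% of all windows, 2 of 78 higher members, 0 of 167 lower members and 11 of 463 not called. A match is a stretch of letters and not a bound site.

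The size of the change did not grow toward Nlk, while the median log2 fold change was slightly lower in each band within 20 Mb than beyond it. Within 5 Mb of Nlk, 12 of 108 loci were higher and 26 lower (35.2% called; median log2 fold change −0.06), and beyond 5 Mb 113 of 903 were higher and 207 lower (35.4% called; median −0.06). By distance, the median was −0.08 within 1 Mb, −0.09 from 1 to 2 Mb, −0.05 from 2 to 5 Mb, −0.09 from 5 to 10 Mb, −0.09 from 10 to 20 Mb, −0.04 from 20 to 40 Mb and −0.04 beyond 40 Mb. The share called lower ran from 18.8% beyond 40 Mb to 38.1% (8 of 21 loci) from 1 to 2 Mb, and the share called higher from 4.76% (1 of 21 loci) from 1 to 2 Mb to 16.3% from 20 to 40 Mb. Over 1011 loci, Spearman's rho between distance and log2 fold change was 0.09, and between distance and the size of the change −0.03. These are correlations across loci, which share their libraries and are not independent replicates. In size, the change of Nlk ranked 1 among loci within 1 Mb, 3 within 5 Mb and 27 on the chromosome.

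**Figure D2:**
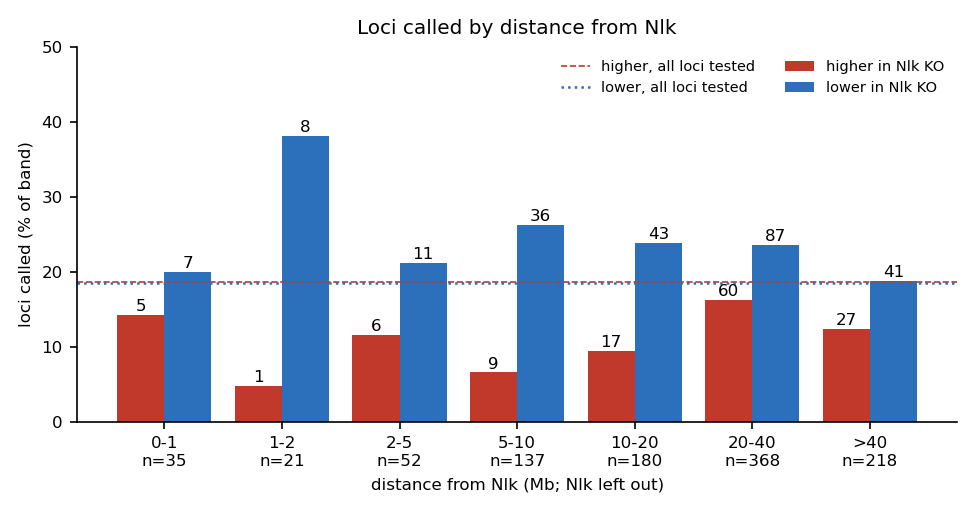
Share of chromosome 11 loci called higher (red) or lower (blue) in Nlk-KO cells, by distance from Nlk in Mb, with Nlk left out and the number of loci called above each bar. The dashed and dotted lines mark the shares over all loci tested, 18.6% higher and 18.5% lower. Lower calls outnumber higher calls in every band at the deposited scaling. With the same summed FPKM the split was 39 higher and 26 lower over the chromosome, against 566 and 355 over all loci.

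The larger changes within 5 Mb lay among loci 2.60 to 3.30 Mb centromeric of Nlk. Serpinf1, which encodes the secreted factor PEDF, was at 30.8, 33.4 and 31.6 FPKM in WT and 82.7, 78.8 and 83.5 FPKM in Nlk-KO cells (1.35, SE 0.04, adjusted p = 1.40e-06, limma). Rtn4rl1, a receptor of the Nogo family, was at 0.356, 0.304 and 0.397 FPKM in WT and 1.12, 0.871 and 0.887 FPKM in Nlk-KO cells (1.23, SE 0.17), and met the 0.5 FPKM minimum only through its Nlk-KO level. A locus of Rph3al, a RAB effector of exocytosis, was at 3.29, 3.27 and 3.802 FPKM in WT and 1.91, 1.77 and 1.81 FPKM in Nlk-KO cells (−0.88, SE 0.08, adjusted p = 0.00021), while a second locus of Rph3al was not called (0.04). Rtn4rl1 and Rph3al were picked out after their values were seen.

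Along the whole chromosome, lower calls outnumbered higher calls at the deposited scaling. With the libraries scaled to the same summed FPKM over loci with a symbol they did not (39 higher and 26 lower). Over all loci tested that scaling also gave more higher than lower calls, 566 against 355. At the deposited scaling, 125 of the 1012 loci were higher (12.4%, against 18.6% of all loci tested) and 234 were lower (23.1%, against 18.5%). The other 653 were not called. The share called in either direction was 35.5%, against 37.1%. Taken whole, the sides of Nlk split alike, with 56 higher and 107 lower among the 514 centromeric loci and 69 higher and 126 lower among the 497 telomeric loci. Within 1 Mb, 1 of 7 telomeric loci was higher and 1 lower, and 4 of 28 centromeric loci were higher and 6 lower. From 1 to 2, 2 to 5 and 5 to 10 Mb, 0, 0 and 3 telomeric loci were higher and 5, 4 and 17 lower, of 10, 17 and 44. On the centromeric side 1, 6 and 6 were higher and 3, 7 and 19 lower, of 11, 35 and 93. Several of these bands hold few loci, and a difference between the sides was not tested. With the chromosome 11 median set to 0, an alternative chosen after seeing the data, the split was 183 higher and 166 lower. Over all loci it was then 3428 higher and 1696 lower. A moderated test against a change of 1.2-fold left 42 higher and 40 lower, against 618 and 451 over all loci. A minimum mean of 5 FPKM left 83 higher and 185 lower, against 1730 and 1687 over all loci.

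The lower calls were mostly small. The median log2 fold change of chromosome 11 was −0.06, against −0.01 for all loci tested, and 669 of the 1012 values were below 0. The median turned to 0.00152 with the same summed FPKM, where that of all loci was 0.05, so that chromosome 11 lay 0.05 below all loci in both. Against the WT mean, the chromosome 11 medians of Nlk-KO replicates 1 to 3 were −0.06, −0.07 and −0.05. Each WT library against the other 2 had medians of 0.00, 0.03 and −0.03, so that the genotypes did not overlap, although the gap between them was smaller than the range over the WT libraries. Chromosome 11 held the fifth lowest median of the 20 chromosomes with members, below which stood chromosomes 10 (−0.20), 5 (−0.11), 3 (−0.10) and 18 (−0.08). Gene copy number was not measured, and its part in these medians was not tested. Of the 359 called loci, 31 differed over 2-fold and 160 under 1.2-fold, and 14 (6 higher and 8 lower) were among the 21 members that met the 0.5 FPKM minimum through 1 genotype only and therefore had to differ.

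In steps of 10 Mb from the start of the chromosome, the median was lowest between 80 and 90 Mb (−0.10), just telomeric of Nlk, where 3 of 76 loci were higher and 26 were lower. The highest median, 0.01, was between 20 and 30 Mb, where 5 of 40 loci were higher and 8 were lower. The step that holds Nlk, from 70 to 80 Mb, had a median of −0.07 with 15 of 132 loci higher and 31 lower. Between 100 and 110 Mb 45.9% of 157 loci were called, 33 higher and 39 lower. In 7 of the 13 steps the medians of all 3 Nlk-KO libraries were below those of all 3 WT libraries. Over the running median of 25 neighboring loci, 904 of 988 windows (91.5%) were below 0 and the window centered on Nlk stood at −0.11, with 154 windows (15.6%) lower.

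The lowest window, at −0.23, ran from 2610035D17Rik to Armc7 around Nat9, 36.5 Mb telomeric of Nlk. It held 2 higher and 11 lower loci, of which Nat9, a predicted acetyltransferase, was at 10.3, 11.1 and 10.5 FPKM in WT and 7.16, 7.40 and 7.10 FPKM in Nlk-KO cells (−0.55, adjusted p = 0.00011, limma). Sstr2, a somatostatin receptor in the same window, was higher, at 2.15, 2.75 and 2.70 FPKM in WT and 4.75, 5.02 and 5.42 FPKM in Nlk-KO cells (0.98, adjusted p = 0.00041). The highest window, at 0.07, ran from Jup to Naglu around Kat2a, 22.0 Mb telomeric of Nlk, with 10 higher and 2 lower loci. It held Stat5b, a transcription factor of cytokine signaling, at 2.49, 2.22 and 2.11 FPKM in WT and 3.99, 4.12 and 3.92 FPKM in Nlk-KO cells (0.80, adjusted p = 0.00025), and the adjoining Stat5a, at 0.771, 0.810 and 0.763 against 1.22, 1.06 and 1.08 FPKM (0.47, adjusted p = 0.015). These windows were the extremes of 988 and are given as a description.

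**Figure D3:**
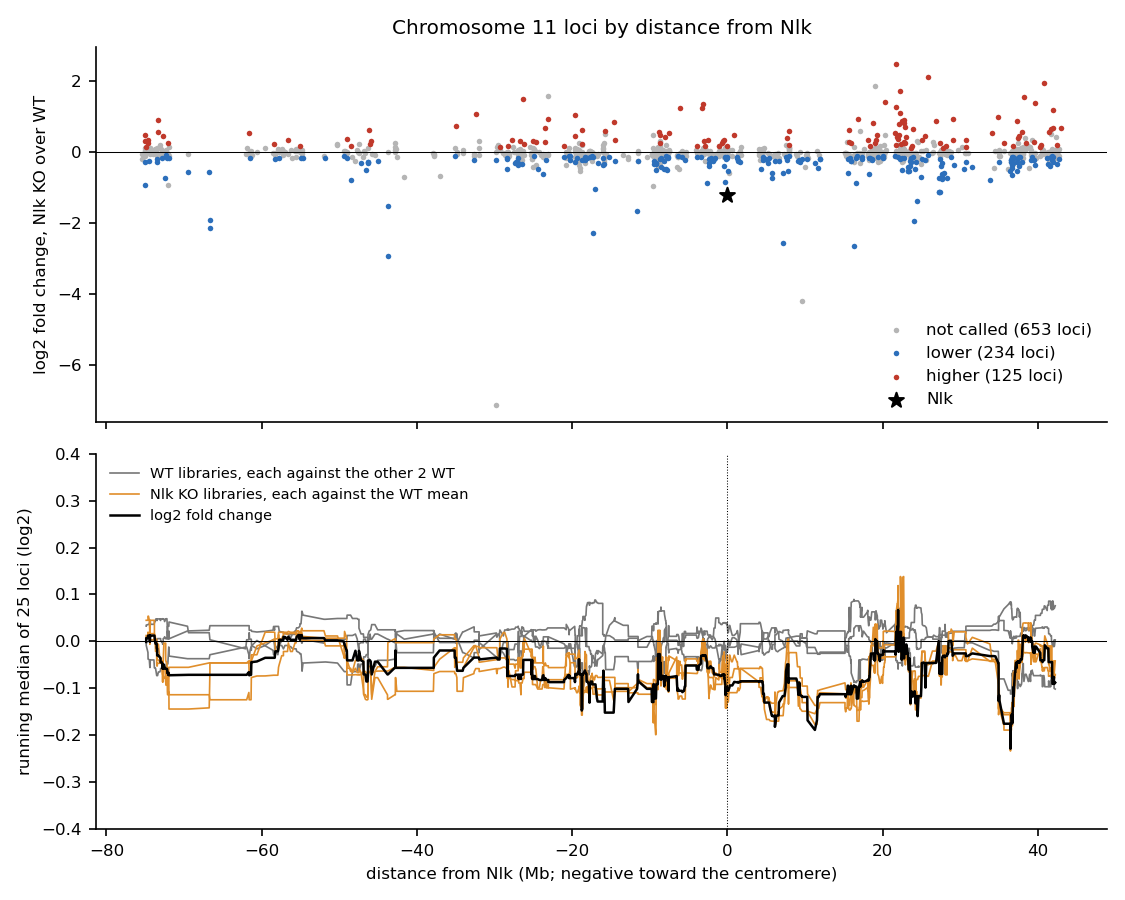
Upper panel: log2 fold change (Nlk-KO over WT) of the 1012 loci by distance from Nlk in Mb, colored by call, with Nlk as a star. Lower panel: running median of 25 loci for the log2 fold change (black), each Nlk-KO library (orange) and each WT library (gray). The black line is below 0 in 91.5% of windows at the deposited scaling. With the same summed FPKM the chromosome median was 0.00152, and that of all loci was 0.05.

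Most of the largest changes lay more than 1 Mb from Nlk, as did most members. The 12 highest and 12 lowest loci were taken among called loci that averaged 5 FPKM or more, had 1 symbol, spanned at least 300 bp and showed no overlap between genotypes. Of these 24, 17 started at 85 Mb or beyond and 11 started between 100 and 107 Mb, where 4 higher and 7 lower loci were interspersed. For comparison, the telomeric side held 497 of the 1012 members, and the step from 100 to 110 Mb held 157. Apart from Nlk, Aldoc was the only one within 1 Mb, where 35 of the other 1011 members lay. Itgb3 and Cacng4 averaged 5 FPKM only through their Nlk-KO level, and Ace only through its WT level, so their place in this set rests on the genotype where they were higher.

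Among the 12 highest, Itgb3, the integrin β3 subunit, went from 2.14, 2.14 and 2.05 FPKM in WT to 9.42, 9.07 and 9.74 FPKM in Nlk-KO cells (2.104, SE 0.05, adjusted p = 7.87e-07, limma). Igfbp4, a secreted binding protein of insulin-like growth factors, was at 100.01, 102.2 and 98.3 FPKM in WT and 270.2, 262.3 and 271.8 FPKM in Nlk-KO cells (1.42, SE 0.03). Timp2, an inhibitor of matrix metalloproteinases, went from 8.80, 8.63 and 8.12 to 22.1, 21.5 and 23.3 FPKM (1.38). In each of these the lowest KO library was more than 2-fold above the highest WT library. Leprel4, an endoplasmic reticulum protein of collagen modification, was at 14.4, 15.2 and 13.7 FPKM in WT and 34.6, 34.1 and 36.1 FPKM in Nlk-KO cells (1.27). Adam19, a membrane-anchored metalloprotease, was at 16.5, 17.0 and 16.8 FPKM against 35.3, 34.2 and 35.4 FPKM (1.05). Sparc, a secreted matrix glycoprotein, was at 9.17, 9.02 and 9.97 FPKM against 17.9, 17.8 and 17.5 FPKM (0.91). None of these genotypes overlapped.

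The other high loci included Ngfr, the p75 neurotrophin receptor, at 53.7, 53.5 and 49.8 FPKM in WT and 101, 95.6 and 101 FPKM in Nlk-KO cells (0.93). Ramp2, an accessory protein of calcitonin-family receptors, was at 15.8, 18.2 and 16.6 against 30.3, 30.8 and 31.4 FPKM (0.87), and Emid1 at 6.74, 7.40 and 6.77 against 13.7, 12.3 and 13.2 FPKM (0.90). Tanc2, a postsynaptic scaffold, was at 8.26, 8.53 and 9.12 FPKM against 17.2, 15.6 and 14.7 FPKM (0.86). Cacng4, an AMPA receptor auxiliary subunit, was listed at 2 loci with the same start and end, and the one among the 12 highest was at 2.83, 4.37 and 5.94 FPKM in WT and 7.40, 7.18 and 9.59 FPKM in Nlk-KO cells. That locus is numbered with the loci of the strand opposite to Cacng4, and strand-specific counting is not stated. Its WT libraries spread widely, and its call (0.91, SE 0.25, adjusted p = 0.025, limma) was lost without WT replicate 2 (0.061) or without Nlk-KO replicate 1, 2 or 3 (0.059, 0.053 and 0.086). The other Cacng4 locus was called higher with a smaller change (0.32, adjusted p = 0.0057, limma).

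The lowest loci after Nlk were led by Cyb561, a cytochrome of catecholamine storage vesicles, at 16.3, 17.3 and 18.0 FPKM in WT and 8.26, 7.72 and 7.44 FPKM in Nlk-KO cells (−1.13, SE 0.05, adjusted p = 1.11e-05, limma). Cyb561 adjoins Tanc2, one of the 12 highest, with 4.40 kb between them, so that a rise and a fall of this size stood side by side. Ace, the angiotensin-converting enzyme next to Cyb561, was at 7.49, 6.87 and 6.90 FPKM against 4.47, 4.25 and 3.93 FPKM (−0.74). Icam2, an intercellular adhesion molecule, was at 19.3, 20.4 and 19.2 against 12.1, 11.2 and 12.3 FPKM (−0.72), and Gh, the growth hormone gene, at 30.5, 32.0 and 27.5 against 20.2, 18.7 and 19.3 FPKM (−0.62). All of these lie within about 1 Mb of each other, and none of their genotypes overlapped.

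Tbx2, a T-box transcription factor, was at 17.8, 17.6 and 15.9 FPKM in WT and 10.9, 11.2 and 11.5 FPKM in Nlk-KO cells (−0.60). Rprml fell by 0.70 and Fignl1, an ATPase of recombination repair, by 0.56, from 39.5, 39.2 and 38.0 to 26.4, 25.8 and 26.6 FPKM. Mpp3 and Mpp2, neighboring genes for membrane-associated guanylate kinases, fell by 0.55 and 0.54. With the same summed FPKM, the calls of Gh, Tbx2, Fignl1, Nat9, Mpp3 and Mpp2 were lost, with adjusted p-values from 0.076 for Gh to 0.189 for Mpp2.

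**Figure D4:**
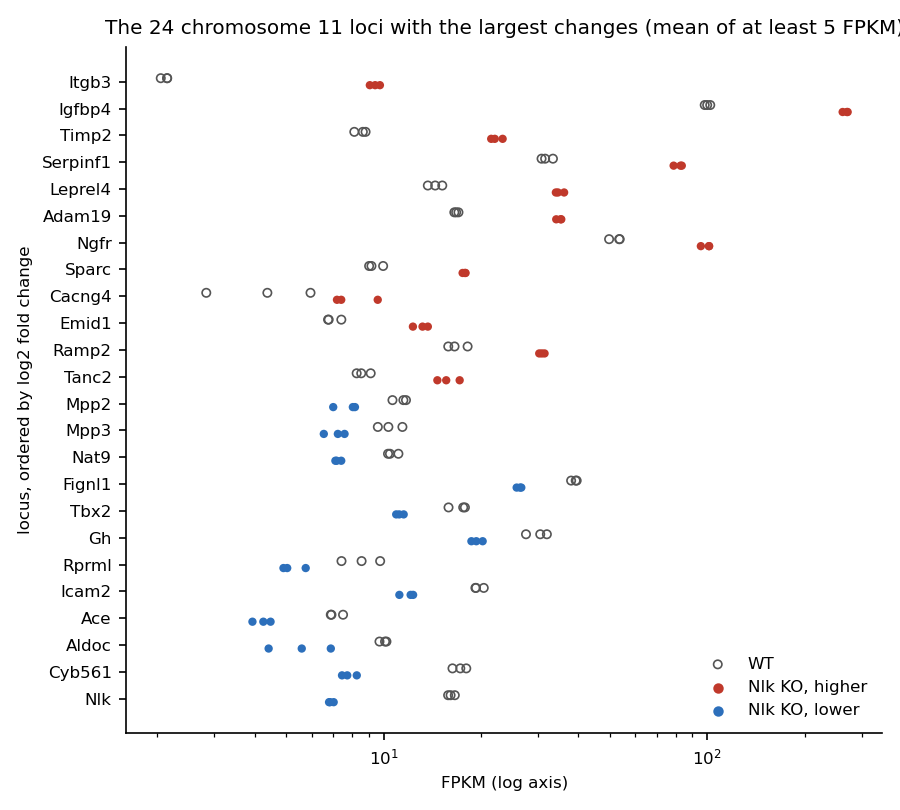
FPKM in each library (log axis) of the 12 highest and 12 lowest chromosome 11 loci under the rule in the text, ordered by log2 fold change; open circles are WT and filled circles Nlk-KO libraries. The genotypes do not overlap at any of them, as the rule required.

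Larger fold changes occurred at loci with means under 5 FPKM, which the rule left out, and the following were picked out after their values were seen. Ddc, the decarboxylase that makes dopamine and serotonin, was at 3.48, 3.45 and 3.55 FPKM in WT and 0.880, 0.705 and 0.576 FPKM in Nlk-KO cells (−2.15, adjusted p = 3.91e-05, limma). Its antisense gene 1700042O10Rik, given the same start and end, was lower too (−1.91), with a Nlk-KO mean under the 0.5 FPKM minimum, and reads of such partners cannot be told apart without strand. Dock2, an exchange factor for RAC, was at 4.005, 4.32 and 4.24 FPKM in WT and 1.28, 1.40 and 1.45 FPKM in Nlk-KO cells (−1.54), and Fam196b, which shares its locus, was lower as well (−2.94), with a Nlk-KO mean under that minimum. Gjc1, a gap junction connexin, was at 5.52, 5.32 and 5.20 FPKM against 1.41, 1.27 and 1.28 FPKM (−1.94). In the opposite direction, Fkbp10, a collagen chaperone next to Leprel4, was at 0.637, 0.664 and 0.574 FPKM in WT and 4.26, 3.42 and 4.16 FPKM in Nlk-KO cells (2.48, adjusted p = 8.39e-06), and Ptrf, a caveolar coat protein, was at 1.27, 1.62 and 1.63 against 5.53, 4.97 and 4.80 FPKM (1.70).

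Adjacent loci moved in the same or in opposite directions. In 134 pairs of adjacent loci both were called, and the direction was the same in 84 and opposite in 50 (37.3%). Of all calls on the chromosome, 34.8% were higher and 65.2% lower. Adjacent loci can overlap, and 280 members in 121 groups shared their start and end with another. Whether the share of opposite pairs differs from that of loci in random order was not tested. After Cdc27 and Itgb3, which stood 57.2 kb apart with log2 fold changes of −0.10 and 2.104, the widest gap was that of Tanc2 and Cyb561. Timp2 (1.38) stood between Usp36 (−0.23) and Lgals3bp (−0.38), 10.7 and 37.3 kb from them. Ptrf (1.70) was followed after 38.8 kb by Atp6v0a1 (−0.19), a subunit of the vacuolar ATPase. A second Atp6v0a1 locus, numbered with the opposite strand, was higher (1.10) at a lower level, with 0.949 ± 0.057 FPKM in WT.

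Gene lists of chromosome 11 were read against the 12.4% higher and 23.1% lower of the chromosome, as well as the 18.6% and 18.5% of all loci. Counts given below for the same summed FPKM are to be read against the 7.27% of all loci called at that scaling. In the list of extracellular matrix, adhesion and actin genes, 9 of 19 loci were higher and 3 were lower, with a median log2 fold change of 0.27, against −0.06 for the chromosome and −0.01 for all loci. The lists were chosen with earlier results of these data known, so their counts are a description and not a test. The higher loci of the matrix list included Itgb3, Igfbp4, Timp2, Sparc and Adam19. Itga3, the integrin α3 subunit, was lower, at 1.87, 1.77 and 1.63 FPKM in WT and 0.208, 0.222 and 0.163 FPKM in Nlk-KO cells (−2.64), and met the 0.5 FPKM minimum only through its WT level. The endothelial and leukocyte adhesion genes Pecam1 and Icam2 were lower too. With the same summed FPKM, 6 were higher and 2 were lower.

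Lysosome and autophagy genes, the group on which the study centered, were mixed on this chromosome: 5 of 27 loci were higher and 10 were lower, with a median of −0.06. Anxa6, a calcium-dependent membrane-binding protein, was at 93.5, 91.5 and 86.0 FPKM in WT and 146, 142 and 148 FPKM in Nlk-KO cells (0.68, adjusted p = 2.98e-05, limma). Gm2a, the GM2 ganglioside activator, went from 3.16, 3.38 and 3.04 to 4.07, 3.70 and 3.97 FPKM (0.29, adjusted p = 0.013). Hexdc, a hexosaminidase, fell by 0.34. Ulk2, an autophagy kinase, had a log2 fold change of −0.30 with an adjusted p of 0.041, which rose to 0.077 to 0.135 when any library but WT replicate 3 was left out. With the same summed FPKM, 1 was higher, 0 were lower by limma (0 also at an unadjusted p under 0.05) and the median turned to 0.0041.

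Among kinase and growth signaling genes, 4 of 24 loci were higher and 4 lower, Nlk included. Egfr, the epidermal growth factor receptor, was at 2.28, 2.22 and 1.79 FPKM in WT and 3.10, 3.14 and 2.97 FPKM in Nlk-KO cells (0.54, adjusted p = 0.0055, limma), and Stat5a and Stat5b were higher as given above. Prkca, protein kinase C alpha, was at 6.61, 6.75 and 6.73 against 5.22, 5.10 and 5.27 FPKM (−0.36, adjusted p = 0.00061), and Rps6kb1, the S6 kinase, at 16.6, 16.3 and 17.1 against 14.1, 14.1 and 14.1 FPKM (−0.24). At the same summed FPKM, 1 locus of this list was higher and 1 lower, and the calls of Egfr, Stat5a, Prkca and Rps6kb1 were lost (adjusted p = 0.127, 0.416, 0.714 and 0.975). In the WNT list, 3 of 10 loci were higher and Nlk alone was lower. Tcf7, a TCF/LEF transcription factor, was at 0.685, 0.876 and 0.744 FPKM in WT and 2.29, 2.34 and 2.34 FPKM in Nlk-KO cells (1.49, adjusted p = 7.06e-05). Fzd2, a WNT receptor, was at 1.77, 1.93 and 1.83 against 2.65, 3.21 and 3.02 FPKM (0.65), and the ligand Wnt3 at 1.95, 1.80 and 1.78 against 2.26, 2.52 and 2.30 FPKM (0.34). The same summed FPKM left 2 of the 3 higher, without Wnt3 (adjusted p = 0.555).

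Neuronal and synaptic genes were mixed, with 7 of 34 loci higher and 8 lower (median −0.03). Scaled to the same summed FPKM, 4 were higher and 2 lower, and the median turned to 0.03. Nptx1, a secreted synaptic pentraxin, was at 1.37, 1.497 and 1.40 FPKM in WT and 5.88, 5.68 and 5.75 FPKM in Nlk-KO cells (1.95, adjusted p = 1.49e-06, limma), and Sstr2 and Ngfr were also higher. Rnf112, a neuronal ring finger gene, was at 2.24, 2.15 and 2.38 against 1.08, 1.00 and 1.01 FPKM (−1.06). The lower count was 5 in place of 8 when WT replicate 1 or either of Nlk-KO replicates 1 and 3 was left out. Among chromatin and transcription genes, 2 of 39 loci were higher and 11 lower (median −0.07), and 1 was higher when any library but WT replicate 2 was left out. Lhx1, a LIM homeobox gene, was at 4.69, 5.11 and 4.46 FPKM in WT and 3.27, 3.14 and 2.86 FPKM in Nlk-KO cells (−0.61), and Tbx4, next to Tbx2, was at 1.39, 1.60 and 1.18 against 0.180, 0.173 and 0.105 FPKM (−2.56), meeting the 0.5 FPKM minimum only through its WT level. Sox9, an SRY-type transcription factor, was higher, at 15.8, 15.8 and 13.6 against 22.2, 21.8 and 21.1 FPKM (0.52). With the same summed FPKM, 0 loci of the chromatin list were higher and 1 lower by limma (1 and 3 at an unadjusted p under 0.05), and the calls of Lhx1 and Sox9 were lost (adjusted p = 0.153 and 0.053).

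In the metabolic list, 14 of 31 loci were lower and 3 higher (median −0.13), among them Aldoc and Aldh3a1, an aldehyde dehydrogenase, which was at 1.22, 1.16 and 0.983 FPKM in WT and 0.229, 0.154 and 0.0852 FPKM in Nlk-KO cells (−2.29). Aldh3a1 met the 0.5 FPKM minimum only through its WT level. With the same summed FPKM, 1 metabolic locus was higher and 2 were lower, and against a change of 1.2-fold 0 were higher and 2 lower by limma (1 and 3 at an unadjusted p under 0.05). The metabolic count also depended on single libraries, with 6 and 5 lower loci when WT replicate 1 or 2 was left out and 8, 7 and 6 when Nlk-KO replicate 1, 2 or 3 was. Its higher count was 1 in the fits that left out WT replicate 1 or either of Nlk-KO replicates 1 and 3. In vesicle traffic, 12 of 29 loci were lower and 3 higher (median −0.09), with 7 lower without WT replicate 1. Rnf167, an endolysosomal ubiquitin ligase, was at 15.9, 15.8 and 16.3 FPKM in WT and 10.4, 11.9 and 11.8 FPKM in Nlk-KO cells (−0.49), and Trappc1, a tethering factor subunit, at 57.7, 60.1 and 57.3 against 47.8, 45.9 and 47.8 FPKM (−0.31).

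Ribosome, translation and proteasome genes were lower at 7 of 30 loci and higher at 0 by limma, also at an unadjusted p under 0.05, where 7 were lower (median −0.08). The merged locus of Cuedc1 and Mrps23 fell by 0.28 and Mrpl27 by 0.25. RNA processing genes were lower at 8 of 30 loci and higher at 0 (12 and 0 at an unadjusted p under 0.05; median −0.07). Their lower count was 4 when WT replicate 1 or 2 was left out and 5 when Nlk-KO replicate 2 or 3 was. The largest fall in this list was that of Upp1, by 0.56 (adjusted p = 0.0065, limma). Upp1 encodes a uridine phosphorylase, an enzyme of nucleoside metabolism rather than of RNA processing. The next was Rnmtl1 (−0.41). Cell cycle and DNA repair genes were lower at 6 of 25 loci and higher at 0 (8 and 0 at an unadjusted p under 0.05; median −0.07), with 1 higher when WT replicate 2 was left out. Birc5, which encodes survivin of the chromosomal passenger complex, was at 124, 124 and 129 FPKM in WT and 109, 105 and 108 FPKM in Nlk-KO cells (−0.23, adjusted p = 0.0021), and Ppm1d, a phosphatase of the p53 pathway, at 10.8, 10.5 and 10.5 against 8.83, 8.66 and 9.20 FPKM (−0.25). The lower counts of the ribosome, RNA processing and cell cycle lists (7 of 30, 8 of 30 and 6 of 25) were near the 23.1% lower of the chromosome. Interferon, innate immune and chemokine genes were mostly silent, with 12 loci of 37 listed genes among the members, of which Ifi35 was higher (0.27) and Lgals3bp and Trim25 were lower (−0.38 and −0.19). With the same summed FPKM, limma called 0 of the 126 loci of the vesicle traffic, ribosome, RNA processing, cell cycle and interferon lists. Of all loci tested, 7.27% were called at that scaling. At an unadjusted p of 0.05, 3 of the 126 passed.

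**Figure D5:**
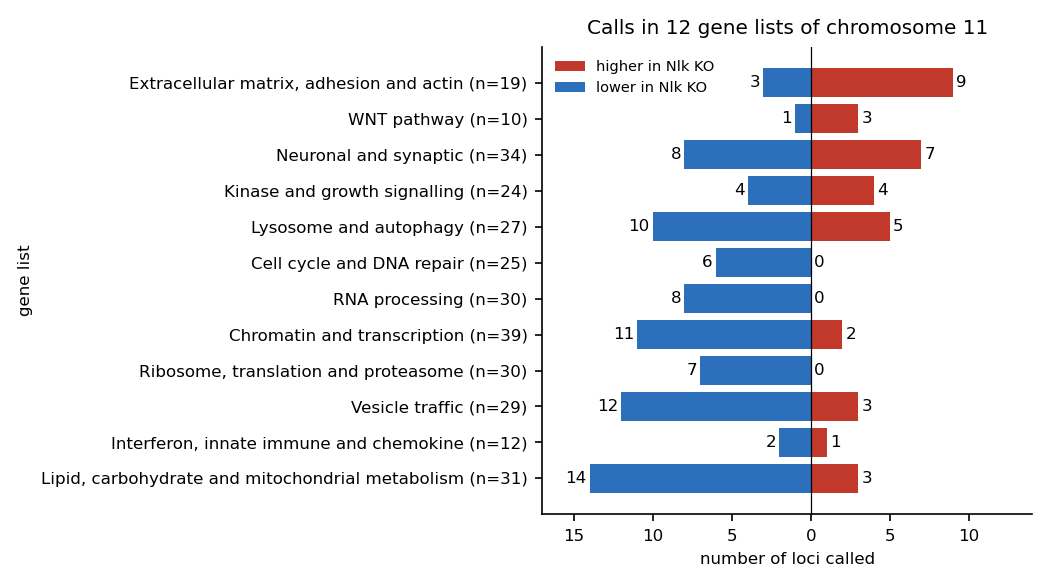
Number of loci called higher (red, to the right) or lower (blue, to the left) in Nlk-KO cells in 12 gene lists of chromosome 11, ordered by median log2 fold change, with the number of loci measured in parentheses. The extracellular matrix, adhesion and actin list has 9 higher and 3 lower loci, and the metabolic list has 3 higher and 14 lower. The lists were chosen with earlier results of these data known.

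Total reads per library are not known. Relative to WT replicate 1, low values placed the depth of the other libraries at 0.979 to 1.29. Within genotypes, the members had a median coefficient of variation of 4.42% (WT) and 3.91% (Nlk-KO). Neuroblastoma markers such as Hand2, Th and Dbh were at 1 FPKM or more. The fibroblast markers Pdgfra and Fbln1 were at 1 FPKM or more and the other 3 of that list under the minimum, and the list summed to 136 to 153 FPKM in WT and 199 to 212 FPKM in Nlk-KO libraries. That sum moved with the extracellular matrix list, and its part in that result was not tested.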

How the data were processed

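RNA-seq of 3 WT and 3 Nlk-KO N2a libraries was analysed from gene locus values. According to the methods and the submitters' notes, the authors used TopHat2 (2.1.0) for alignment to GRCm38/mm10, Cufflinks (2.2.1) for quantification and Cuffnorm for normalization, and deposited FPKM per locus and library. Annotation, strandedness and library scaling are not stated there. The deposited table also holds the authors' fold changes, p-values and adjusted p-values from Cuffdiff, and a second table holds the loci that passed them. Neither was used. 0 library columns were left unmapped, and 1 empty line was dropped.

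Values of loci averaging 0.5 FPKM or more were transformed as log2(FPKM + 0.1), and the genotypes (n = 3 each) were compared in 1 limma model (3.58.1, R 4.3.3; trended prior). Benjamini-Hochberg adjustment covered 12667 loci at a threshold of 0.05. Fold changes on this scale understate the change of low loci. The labels call the replicates biological without saying whether they were separate cultures or clones, and the p-values reflect variation among these libraries. Exact permutation tests were not run, since the smallest p that 3 against 3 libraries allow is 0.1. The model was tested on simulated data. 4 members were listed at 0 in a library.

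Starts in the table count from 0 and were raised by 1. Loci that overlap can carry the span of the whole group, and 280 members in 121 groups shared their start and end with another, so distances are to the nearest edge of that span. Locus numbers ran along the chromosome in 1 series per strand, which matched the annotated strand (GENCODE M21) for 925 of 937 members. 2 symbols turned into dates were resolved by position. The guide sites and exon were read from GENCODE, and start windows from RefSeq (GRCm38.p6).

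Named were Nlk, each locus within 1 Mb, the 12 highest and 12 lowest called loci averaging 5 FPKM or more (single symbol, at least 300 bp, no overlap between genotypes) and up to 4 called loci per gene list. Members and lists were chosen with earlier results of these data known. The alternatives comprised 16 planned ones (pseudocount, filter, scaling, replicate block, prior variance, a 1.2-fold test and leaving out each library) and 1 added after seeing the data.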

Additional observations from a re-analysis of the deposited data

How the results depend on the processing

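Nlk was lower and called under all 17 alternatives. The count of loci called higher on chromosome 11 (125) became 83 with a minimum mean of 5 FPKM, 39 with the same summed FPKM over loci with a symbol and 42 against a change of 1.2-fold, and the count called lower (234) became 26 and 40 under the last pair. The chromosome 11 median became 0.00152 with the same sum and −0.00377 with the chromosome 11 median removed. Within 5 Mb, 5 loci were called with the same sum and 5 against 1.2-fold, and the median log2 fold change within 5 Mb of Nlk became 0.000685 with the same sum and −0.00431 with the chromosome 11 median removed. The same-sum scaling called 921 loci in all, against 4697. The summed FPKM it equalizes ran from 549567 to 741184 between libraries, and was 679235, 549567 and 725392 in WT replicates 1 to 3. At the deposited scaling, each WT library against the other 2 had medians over all loci of 0.00, 0.02 and −0.01. How far the loss of calls came from spread that the same-sum scaling adds between libraries was not tested. Leaving out 1 library at a time gave 99 to 118 higher and 158 to 254 lower loci, a chromosome 11 median of −0.07 to −0.05, 28 to 36 loci called within 5 Mb and a median within 5 Mb of −0.0724 to −0.0452. The chromosome 11 median less that of all loci was −0.05 in every alternative but that without a filter (−0.04) and that without WT replicate 2 (−0.04). Of 1604 values of named loci under the alternatives, 1453 kept their side of the threshold and direction, 140 lost the call, 11 gained one and 0 reversed. These values include loci that were not called. Of the 74 named loci that were called, only 26 kept the call in every alternative that held them.

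The labels number the libraries 1 to 3 in both genotypes and state no pairing. Correlations of deviations across loci were 0.04, 0.06 and −0.13 for same-numbered libraries and −0.19 to 0.19 for differently numbered ones. The main fit used no pairing, and whether same-numbered libraries shared a culture or preparation was not tested. With the replicate block, 108 chromosome 11 loci were higher and 196 lower, and 4038 loci were called in all. The block left 6 lower loci in the metabolic list and 4 in the RNA processing list.

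Total reads are not known, and changes below about the spread between libraries at low FPKM were not detectable.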
